A study of Homo sapiens with 16 samples.

Results

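The cytoplasmic ribosomal proteins are the protein subunits of the ribosome that translates nuclear-encoded mRNA. Their genes were taken as those with a symbol of RPL (large subunit) or RPS (small subunit) and a number, together with RPLP0, RPLP1, RPLP2 and RPSA. The RPS6K kinases, pseudogenes and antisense transcripts were left out, so that 18 other symbols beginning RPL or RPS did not count. In RefSeq, 87 protein-coding genes met this definition, and 74 of them had a probe set on the array that was assigned to them alone. After a filter on dim probe sets, 70 members were tested among 12495 genes, 46 of the large and 24 of the small subunit.

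The cells were HEK293, a human embryonic kidney line, and every group carried the same transfected plasmid, which encodes MR (the mineralocorticoid receptor, NR3C2), given at 500 ng per well for 24 h. They were then treated for 4 h with deoxycorticosterone acetate (DOC, an agonist of this receptor) at 100 nM plus phorbol 12-myristate 13-acetate (PMA, an activator of protein kinase C) at 10 nM, with PMA alone, with DOC alone, or with vehicle. Each of the 4 groups had 4 arrays, numbered in the labels as biological replicates. No group without the plasmid was analysed here. Transcripts were measured on Affymetrix PrimeView arrays, and all values below are log2 RMA signals, in which 1 unit is a doubling of signal.

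Ribosomal proteins are assembled with ribosomal RNA in fixed proportions, and their mRNAs are among the most abundant in growing cells. Most of these mRNAs begin with a C followed by a run of pyrimidines, the 5' terminal oligopyrimidine (TOP) motif. Through this motif the kinase complex mTORC1 and the RNA-binding protein LARP1 control their translation and stability as a class. Phorbol esters act through protein kinase C on the ERK kinases and, downstream of them, on the RSK kinases, which also phosphorylate ribosomal protein S6.

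Start regions are shown for members with contrasting starts and for those that the comparisons below turn on. Each window holds 35 bases before and 15 bases from the transcription start of RefSeq on GRCh38.p14, written 5' to 3' in the sense of the gene, and capitals mark an unbroken run of pyrimidines (C or T) that covers the start. The windows lie at chr1:153990727-153990776 (plus strand) for RPS27, chr15:63157463-63157512 (minus strand) for its paralog RPS27L, chrX:119791616-119791665 (minus strand) for RPL39 and chr16:89560647-89560696 (plus strand) for RPL13, at start 2 of its 3 listed starts. Those of RPL27A, RPL35A and RPL36AL lie at chr11:8682757-8682806 (plus strand), chr3:197950155-197950204 (plus strand) and chr14:49620612-49620661 (minus strand).
RPS27: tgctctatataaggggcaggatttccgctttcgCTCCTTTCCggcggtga
RPS27L: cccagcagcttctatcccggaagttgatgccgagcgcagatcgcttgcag
RPL39: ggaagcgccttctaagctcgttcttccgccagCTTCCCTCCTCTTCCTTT
RPL13: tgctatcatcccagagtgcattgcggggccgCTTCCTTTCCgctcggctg
RPL27A: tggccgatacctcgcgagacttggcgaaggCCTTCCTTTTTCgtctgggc
RPL35A: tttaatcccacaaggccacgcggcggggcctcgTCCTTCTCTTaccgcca
RPL36AL: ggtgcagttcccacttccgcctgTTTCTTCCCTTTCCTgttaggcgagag
In these windows, the start of RPS27L lies in no pyrimidine run, while those of the other 6 genes do. Of the RPL13 starts not shown, start 1 lies in a run of 4 bases and start 3 in none. The start of RPL36AL lies near the end of its run and is not a C followed by at least 4 pyrimidines. RPL39L is named only.

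Of the 87 members, tested or not, 70 had a start region in the RefSeq table, among them 59 of the 70 tested. A C at the start followed by at least 4 pyrimidines stood at a listed start of 48 of the 70 with a start region. This was 68.6%, against 5.14% of all 27305 genes of the table, and 71.2% of the 59 tested members. A run of 8 or more pyrimidines within 25 bases of the start was present in 84.3% of the members and in 24.5% of all genes. The motif CCGGAAG, the kind bound by ETS factors, was found on either strand within 250 bases before to 50 after a start in 34.3% of members and 12.2% of all genes. For AGATGGC, the core bound by YY1, the shares were 12.9% and 6.63%, and for TGANTCA, the kind bound by AP-1, 4.29% and 9.37%. No overlap between motif matches was removed. These are matches of letters and not sites shown to be bound.

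The 70 members sat near the top of the measuring range on every array. The median member signal was 12.86 to 12.93 on the 4 arrays with DOC plus PMA, 12.82 to 12.90 with PMA, 12.91 to 12.94 with DOC and 12.89 to 12.94 with vehicle, against array medians over all probe sets of 4.91 to 4.96. Members made up 49 to 55 of the 100 highest gene signals on each array. The brightest were RPL32, of the large subunit, RPS2, of the mRNA entry channel, and RPL23A, at the tunnel exit, with means of 13.71, 13.64 and 13.60 over 16 arrays, and the highest signal on any array was 13.67 to 13.78. The dimmest tested members were RPL27A at 5.92, RPL39L at 7.72 and RPL22L1 at 7.99. A signal places a probe set in the range of the array and is not an amount of transcript, so these values do not rank the genes by abundance. Replicate spread was small, with a median within-group SD of 0.0628 over the members and 0.127 over all genes, and of 0.0656 for the 91 other genes with a mean signal of 12 or more.

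The members that were not tested were accounted for as follows. RPL3L and RPL10L, paralogs used mainly in striated muscle and testis, and the Y-linked RPS4Y1 and RPS4Y2 had probe sets below the filter. RPL17, RPL36A, RPS12 and RPS26 had only probe sets assigned to several genes, and 9 members were not analysed here. The members have many processed pseudogenes and near-identical copies, and 58 of the 70 probe sets used carried the suffix x or s, which marks probes that can match other transcripts, so their assignment to 1 gene is uncertain.

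The markers of the cell line were present except PAX2. Vimentin (VIM), KRT18, NEFL and NEFM were above the array median on all 16 arrays, and PAX2, with a mean of 4.71, on 3. These markers also moved with phorbol ester: NEFM averaged 9.60 with PMA and 7.09 with vehicle, KRT18 was 0.77 higher and NEFL 0.45 lower (adjusted p = 3.18e-10, 1.32e-06 and 0.00113, limma). Of the 9 markers of leukocytes, endothelium and fibroblasts, 8 were below the median on every array, and CD68 exceeded it on 2 PMA arrays and 1 array with DOC plus PMA. CD68 rose by 0.43 and PECAM1 by 0.30 with PMA against vehicle (adjusted p = 0.0326 and 0.00479, limma), and their part in the results below was not tested. Among the 16 arrays, 3 departed from their groups together: replicate 1 of DOC and replicate 2 of both PMA groups. The correlations of their deviations over all genes were 0.425 to 0.554. The counts of members are given below with and without these arrays. So are RPL23, RPS6, RPL7L1, RPL35A and RPL36AL, whose values move with them, in places with only 1 of the 3 left out. RPLP2 was also low on DOC replicate 1 and DOC plus PMA replicate 2, and its differences are given only with all arrays.

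PMA against vehicle asked what phorbol ester did to these genes in the absence of added steroid. Of the 70 members, 1 was higher and 3 were lower with PMA at an adjusted p under 0.05 (limma, adjusted by Benjamini-Hochberg over all genes), while 47% of all genes passed, 17.7% higher and 29.3% lower. At an unadjusted p under 0.05 the members numbered 8. The median member difference was −0.04, and that of all genes was also −0.04. The middle 50% of members lay between −0.07 and −0.01, and that of all genes between −0.26 and 0.15. Differences were negative in 55 of 70 members, a tally that depended on the scaling. It was 39, with a median of −0.01, when every array was centred on a common median, and 60, with a median of −0.07, after cyclic loess. The counts were 1 higher and 8 lower after cyclic loess scaling, and 5 higher and 5 lower with the mean of a gene's probe sets. Without the 3 arrays that departed together, a setting chosen after seeing the data, they were 3 higher and 3 lower. For 62 members the 95% interval of the difference lay within 1.25-fold either way, as it did for 34.5% of all genes. Members also had a smaller replicate spread (median SD of 0.0628 against 0.127), which narrows such intervals. For the other comparisons below, counts of these intervals are given without a share over all genes. RMA sets the probe intensities of all arrays to the same distribution before they are summarised, which hides any shift that all transcripts share, and in bulk RNA fewer cells and less RNA per cell cannot be told apart.

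**Figure D1:**
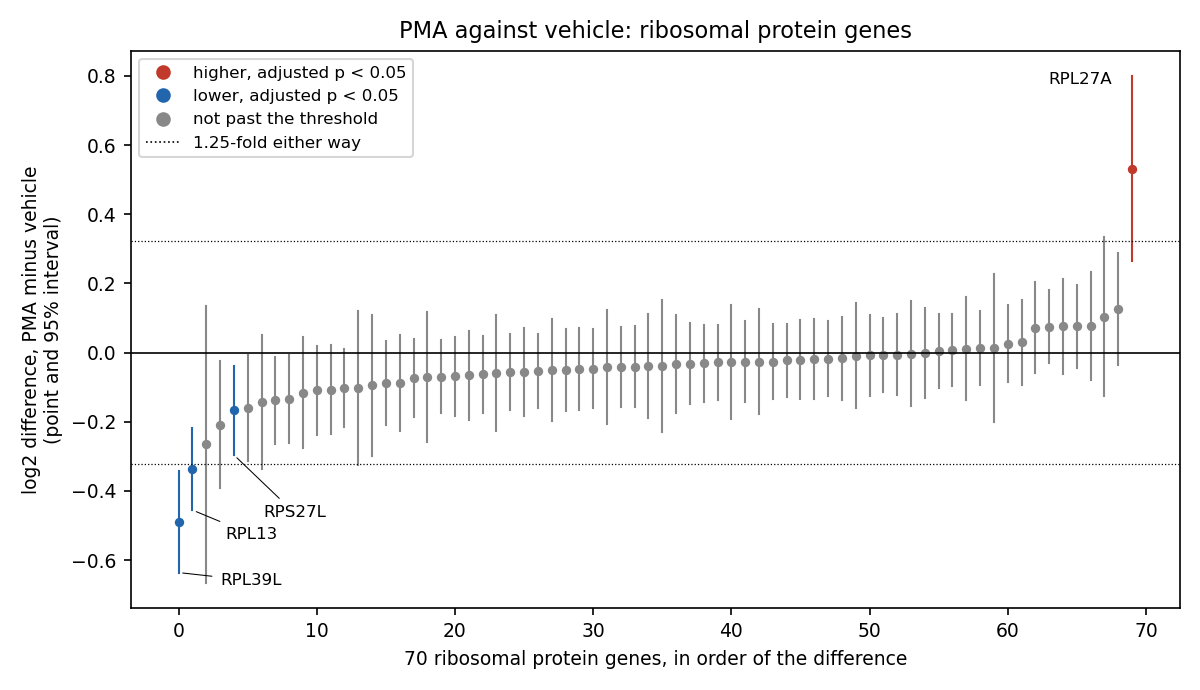
Log2 difference in signal, PMA minus vehicle (vertical axis), for each of the 70 tested ribosomal protein genes in order of the difference (horizontal axis), with 95% intervals from limma and n = 4 arrays per group. Blue points (RPL39L, RPL13, RPS27L) and the red point (RPL27A) passed at an adjusted p under 0.05, dotted lines mark 1.25-fold, and 62 of the 70 intervals lie between them.

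RPL39L, a paralog of the tunnel protein RPL39 that is used mainly in testis and in some tumour cells, fell most. Its signals were 7.41, 7.57, 7.37 and 7.56 on the PMA arrays, against 7.89, 8.04, 7.95 and 7.99 on the vehicle arrays. Every PMA array was below every vehicle array. The difference was −0.49 ± 0.07 (SE, adjusted p = 1.50e-05, limma), a 1.40-fold fall. The ubiquitous RPL39, whose mRNA starts with the pyrimidine run shown above, did not pass (adjusted p = 0.844, limma). RPL39 had 13.17, 13.18, 13.05 and 13.10 with PMA and 13.18, 13.07, 13.16 and 13.16 with vehicle, and its difference was −0.02 with a 95% interval of −0.14 to 0.10.

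RPL13, a large-subunit protein that is mutated in a skeletal dysplasia, had 11.25, 11.36, 11.33 and 11.38 with PMA, against 11.71, 11.74, 11.64 and 11.57 with vehicle. The groups did not overlap, and the difference was −0.34 ± 0.06 (adjusted p = 9.03e-05, limma), a 1.26-fold fall. The size depended on the probe set. A second probe set, assigned to RPL13 and its pseudogene RPL13P12 and with a mean signal of 13.40, differed by −0.11 and did not pass (adjusted p = 0.191 over all probe sets, limma). RPL13A, a different large-subunit protein that also silences inflammatory mRNAs in interferon-treated myeloid cells, had a similar split. Its probe set of 13.30 differed by −0.11, and a second one, with a mean of 11.75, fell by 0.39 (adjusted p = 0.000137 over all probe sets, limma). The second one had 11.49 to 11.60 with PMA and 11.86 to 12.01 with vehicle.

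RPS27L, a p53-induced paralog of RPS27 without a pyrimidine run at its start, fell by 0.17 ± 0.06 (adjusted p = 0.0320, limma). Its signals were 11.20, 11.23, 11.16 and 11.28 with PMA and 11.40, 11.35, 11.41 and 11.38 with vehicle, with no overlap. The call was lost in 8 of 26 other settings (adjusted p of 0.0507 to 0.0892, limma). These were no filter on dim probe sets, centring on a common median, a fit to the compared arrays alone, and leaving out PMA replicate 1 or 3 or vehicle replicate 1, 3 or 4. RPS27 differed by −0.05, with an interval of −0.17 to 0.07.

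RPL27A, a large-subunit protein, was the only tested member to pass as higher with PMA in the main fit, with a rise of 0.53 ± 0.13 (adjusted p = 0.00217, limma). It had 6.06, 6.60, 6.18 and 6.03 with PMA, against 5.45, 5.62, 5.79 and 5.88 with vehicle. The groups did not overlap. Its single-gene probe set was the dimmest of the 70 used. Both probe sets shared between RPL27A and the small nucleolar RNA SNORA3A, with mean signals of 4.49 and 4.14, differed by −0.01 and −0.11. What transcript the dim RPL27A probe set measured was not tested.

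RPL23, a large-subunit protein that can inhibit MDM2, had the next most negative difference after RPL13, at −0.27 ± 0.19, and did not pass (adjusted p = 0.268, limma). It is named because of its array values, which were 12.54, 11.77, 12.63 and 12.68 with PMA and 12.60, 12.66, 12.75 and 12.66 with vehicle. The low value came from PMA replicate 2, and without that array the difference was −0.05. On the DOC arrays RPL23 had 11.80, 12.65, 12.74 and 12.68, where the low value came from replicate 1, another of the 3 arrays that departed together.

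**Figure D2:**
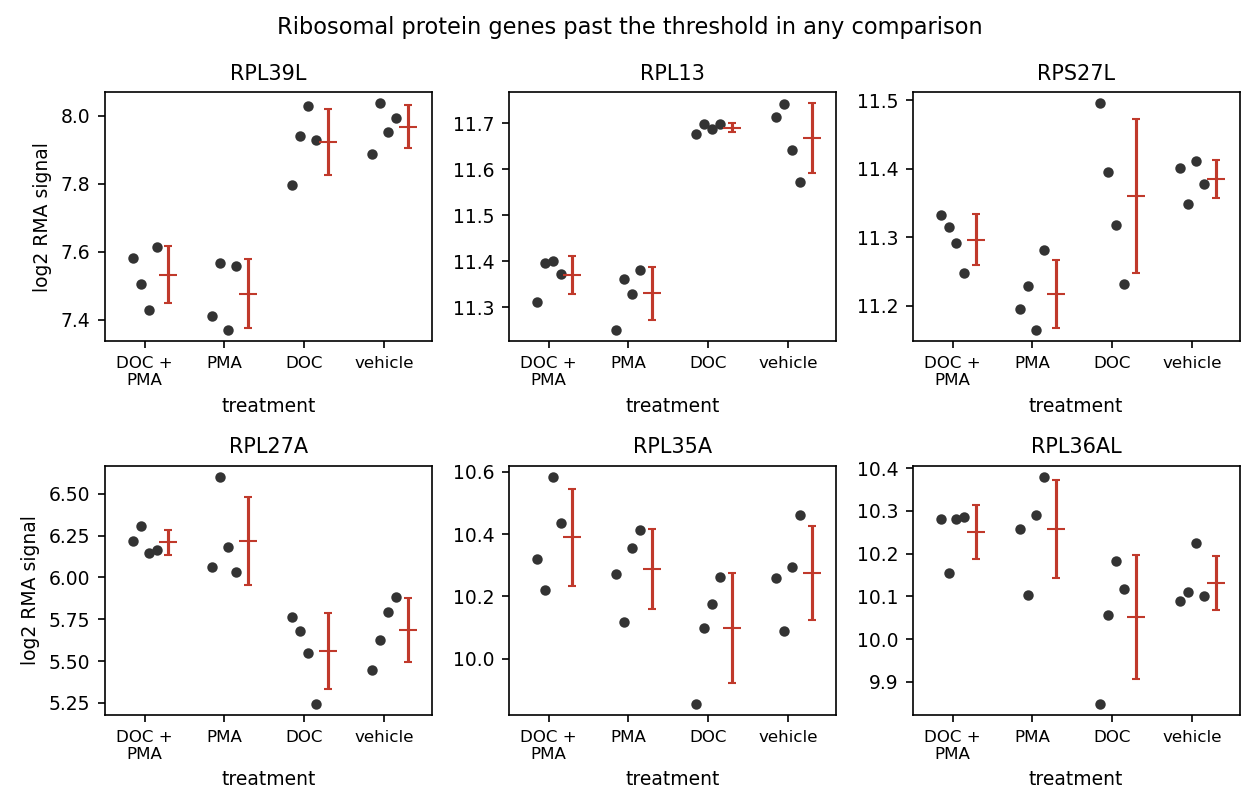
Log2 RMA signal of the 6 members that passed in any comparison (vertical axes, 1 panel per gene, each with its own scale that does not start at 0) in the 4 treatments (horizontal axes), with 1 black point per array and the mean ± SD of 4 arrays in red. RPL39L and RPL13 are lower and RPL27A is higher on all 8 arrays that received PMA than on the 8 that did not, while RPL35A and RPL36AL overlap between DOC plus PMA and DOC.

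The paralog list held 6 tested members, of which 2 fell with PMA (RPL39L and RPS27L), where 29.3% of all genes fell, and none rose. RPL26L1, a paralog of RPL26, had 10.52, 10.42, 10.71 and 10.78 with PMA and 10.83, 10.80, 10.80 and 10.83 with vehicle. These groups did not overlap, but the difference of −0.21 ± 0.09 did not pass (adjusted p = 0.0587, limma). It passed in 5 of 25 other settings, among them the fit with the replicate number as a block (adjusted p = 0.0243, limma), the 60th percentile filter, and leaving out PMA replicate 3 or 4 or DOC replicate 1. RPL26 itself differed by −0.02. RPL22L1, a paralog of RPL22, had 7.98 to 8.06 with PMA and 7.93 to 8.15 with vehicle, a difference of −0.00 with an interval of −0.16 to 0.15. RPL22 differed by −0.07 and had 13.31 to 13.33 with PMA, all below the 13.36 to 13.41 with vehicle. RPL36AL differed by 0.13 and RPL7L1, which resembles RPL7, by 0.10, and neither passed. Without the 3 arrays that departed together both passed, at 0.18 for RPL36AL (adjusted p = 0.0179, limma) and 0.22 for RPL7L1 (adjusted p = 0.0111, limma).

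In the main fit, with 1 probe set per gene, the functional sites of the ribosome held no tested member past the threshold in this comparison. In the stalk that recruits the elongation factors, RPLP1 differed by 0.07 ± 0.06 and RPLP2 by −0.09 ± 0.07, and RPLP0 was not tested. RPL5 and RPL11 carry 5S ribosomal RNA into the ribosome and bind MDM2 when free. RPL5 had 12.67 to 12.72 with PMA, above the 12.60 to 12.66 with vehicle, and RPL11 had 13.07 to 13.19, below the 13.19 to 13.21 with vehicle. Neither difference, 0.08 ± 0.05 for RPL5 and −0.07 ± 0.05 for RPL11, passed. Their adjusted p-values were 0.228 and 0.318 (limma). The 7 tested proteins around the exit of the peptide tunnel (RPL19, RPL22, RPL23A, RPL26, RPL31, RPL35 and RPL39) lay between −0.07 and 0.01. At the mRNA channel, RPS2 differed by −0.02, RPS23, which lines the decoding centre, by −0.05, and RPS3 by −0.14 ± 0.06 (adjusted p = 0.0753, limma). The RPS2 value depended on the probe set, and without x or s probe sets RPS2 passed as higher, as given below. RPS6, the S6 kinase substrate, had 12.77 to 13.09 with PMA and 13.05 to 13.16 with vehicle, a difference of −0.12 ± 0.08 that did not pass and was −0.04 without PMA replicate 2, the array with the lowest value. The 46 large-subunit members split into 1 higher, 2 lower and 43 not past the threshold, with a median of −0.04, and the 24 small-subunit members into 0 higher, 1 lower and 23 not past it, with a median of −0.03.

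DOC plus PMA against DOC asked the same of phorbol ester with the steroid present. Its groups share no array with those of PMA against vehicle, but the fit estimates the spread from all 16 arrays. Replicates of PMA and DOC plus PMA also deviated together (correlations of 0.157 to 0.549), so the comparisons are not independent. Of the 70 members 3 were higher and 2 were lower, against 42.6% of all genes (15.7% higher and 26.9% lower), and 5 members had an unadjusted p under 0.05. The member median was −0.02 (0.00 when centred on a common median and 0.02 with the mean of a gene's probe sets) and that of all genes −0.05, and 63 members had intervals within 1.25-fold. RPL39L, RPL13 and RPL27A, which passed with PMA alone, passed here too in the same directions, so that they were 3 of the 4 members called there (75%) and 3 of the 5 called here (60%). Over all genes, 4646 passed in both in the same direction, or 79.2% of those called there and 87.3% of those called here.

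RPL39L had 7.58, 7.51, 7.43 and 7.61 with DOC plus PMA, against 7.79, 7.94, 8.03 and 7.93 with DOC, with no overlap. It fell by 0.39 ± 0.07 (adjusted p = 0.000183, limma). RPL13 had 11.31, 11.40, 11.40 and 11.37 with DOC plus PMA, against 11.68, 11.70, 11.69 and 11.70 with DOC, and fell by 0.32 ± 0.06 (adjusted p = 0.000163, limma). Again no values overlapped. RPL27A had 6.22, 6.31, 6.15 and 6.16 with DOC plus PMA, against 5.76, 5.68, 5.55 and 5.25 with DOC, and rose by 0.65 ± 0.13 (adjusted p = 0.000431, limma). RPS27L, with 11.25 to 11.33 against 11.23 to 11.50 with DOC, differed by −0.06 ± 0.06 and did not pass.

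In the main fit RPL35A and RPL36AL passed only in this comparison, and no difference between comparisons was tested for them except the interaction given below. RPL35A, a large-subunit protein that is mutated in Diamond-Blackfan anaemia, had 10.32, 10.22, 10.58 and 10.44 with DOC plus PMA, against 9.86, 10.10, 10.18 and 10.26 with DOC. The groups overlapped, and the rise was 0.29 ± 0.10 (adjusted p = 0.0275, limma). A second RPL35A probe set, with a mean of 6.68, rose by 0.30 in this comparison and by 0.29 with PMA against vehicle, and a brighter one shared with ZNF391, at 13.03, differed by 0.01 with PMA against vehicle. RPL36AL, a paralog of RPL36A, had 10.28, 10.16, 10.28 and 10.29 with DOC plus PMA, against 9.85, 10.06, 10.18 and 10.12 with DOC, and rose by 0.20 ± 0.08 (adjusted p = 0.0436, limma). The lowest DOC value of both genes came from DOC replicate 1. Without that array RPL35A differed by 0.21 (adjusted p = 0.101, limma) and RPL36AL by 0.13 (adjusted p = 0.158, limma), so neither passed. The call of RPL35A was lost in 4 of 26 other settings, which left out DOC replicate 1 or 2 or DOC plus PMA replicate 3 or 4. That of RPL36AL was lost in 13 of 26 (adjusted p of 0.0508 to 0.213, limma), also with no filter, with the mean of probe sets, without x or s probe sets, with the compared arrays alone and without any 1 of 9 arrays from all 4 groups. With all 3 arrays that departed together left out, 3 members were again higher and 2 lower, RPL35A and RPL36AL among them.

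DOC plus PMA against vehicle shares its arrays with the comparisons above. There 1 member was higher and 2 were lower, against 43.8% of all genes (17.5% higher and 26.3% lower). RPL39L differed by −0.43 (adjusted p = 6.04e-05), RPL13 by −0.30 (adjusted p = 0.000333) and RPL27A by 0.52 (adjusted p = 0.00267, all limma). The member median was −0.02 (0.00 when centred on a common median and also with the mean of probe sets), and 62 intervals lay within 1.25-fold. After cyclic loess scaling 6 members were lower, with the mean of a gene's probe sets 9 were higher, and without the 3 arrays that departed together 2 were higher.

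The steroid contrasts asked what DOC did to these genes without and with PMA. For DOC against vehicle, 0 of 70 members passed in limma, and 0 had an unadjusted p under 0.05, against 0.12% of all genes past the threshold. The member median was −0.01, the differences ran from −0.20 (RPL23, which was at 0.02 without DOC replicate 1) to 0.06, and 65 intervals lay within 1.25-fold. For DOC plus PMA against PMA, 0 members passed in limma and 0 had an unadjusted p under 0.05, against 0.384% of all genes past the threshold (0.36% higher and 0.024% lower). The differences ran from −0.05 for RPL22L1 to 0.16 for RPL23, and 69 intervals lay within 1.25-fold. The fit behind these values did not pair the replicates. Without PMA replicate 2 the RPL23 difference turned to −0.05. For the interaction, which subtracts the effect of DOC in cells without PMA from its effect in cells with PMA, 0 members passed and 0 had an unadjusted p under 0.05 (limma), against 0.088% of all genes past the threshold (0.072% higher and 0.016% lower). Interaction values ran from −0.09 to 0.37, the highest being that of RPL23. The RPL23 value was 0.15 without PMA replicate 2, 0.14 without DOC replicate 1 and −0.03 without the 3 arrays that departed together. RPL35A had an interaction of 0.28 ± 0.14, with an interval of −0.03 to 0.58 (0.20 without those 3 arrays), and RPL36AL one of 0.07 ± 0.11 (−0.01 without them). The interaction is less precise, with a median SE of 0.085 over members against 0.06 for a difference of 2 groups, and 59 intervals lay within 1.25-fold.

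**Figure D3:**
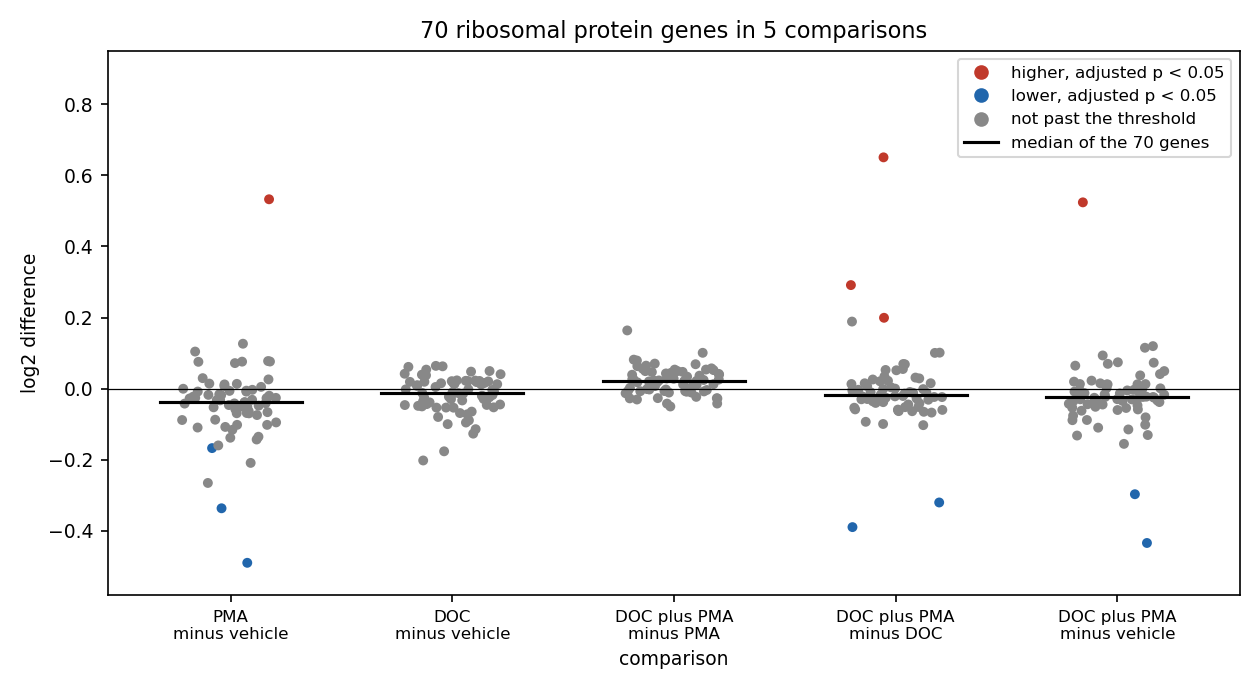
Log2 differences of the 70 ribosomal protein genes (vertical axis) in 5 comparisons (horizontal axis), with 1 point per gene, spread sideways at random, and the median as a black line. Red and blue points passed at an adjusted p under 0.05, higher or lower, and these occur in the 3 comparisons that add PMA, while the medians of all 5 lie between −0.04 and 0.02.

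Signal strength moved with the calls. In the main fit, none of the 56 members with a mean signal of 12 or more passed in any of these comparisons or in the interaction (limma, with 3 at an unadjusted p under 0.05 for PMA against vehicle and 0 in the others). With other choices of probe set RPL32 and RPS2, both that bright, passed as higher with PMA, as given below. Of the 91 other genes that bright, 31.9% passed when PMA was set against vehicle, with 12 higher and 17 lower. These genes were not matched to the members in signal above 12. For DOC plus PMA against DOC 22% of those 91 passed. The bright members differed by −0.27 to 0.08 for PMA against vehicle, with a median of −0.04, and the other bright genes by −0.36 to 0.52. The −0.27 was that of RPL23, and without PMA replicate 2 the lowest was −0.10, for RPS3. Whether the brightest member probe sets were close to the upper limit of the scanner or of hybridisation was not tested.

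The other probe sets of the same genes were compared in a fit over all 30613 probe sets kept. The 70 members had 172 of these, and for PMA against vehicle 14 were higher and 6 lower, or 11.6%, against 40.9% of all probe sets. The 92 member probe sets with a signal of 12 or more gave 0 calls in limma (5 at an unadjusted p under 0.05), where 13.5% of all probe sets of that strength passed. From 10 to 12, 1 of 32 was higher and 3 were lower (12.5%, against 32.5%). Below 10, 13 of 48 were higher and 3 were lower (33.3%, against 41.7%), and their median difference was 0.15, where that of all probe sets below 10 was −0.04. In DOC plus PMA against DOC, 18 of the 172 were higher and 3 were lower (12.2%, against 36.6% of all probe sets). There, 16 of the same 48 were higher and 1 was lower (35.4%, against 37.5%), with a median of 0.18. From 10 to 12, 2 of 32 were higher and 2 lower (12.5%, against 27.2%), and at 12 or more 0 of 92 passed in limma and 0 had an unadjusted p under 0.05, against 10.2% of all probe sets of that strength. In DOC against vehicle, 0 of the 172 passed in limma and 0 had an unadjusted p under 0.05, against 0.0719% of all probe sets.

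**Figure D4:**
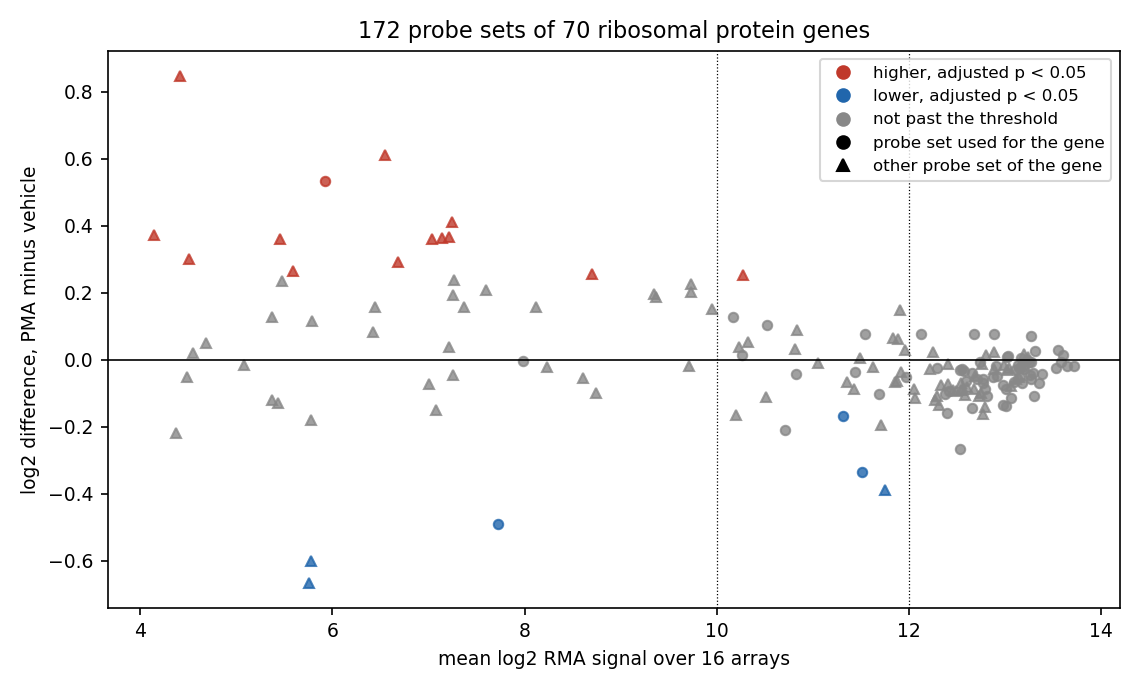
Log2 difference, PMA minus vehicle (vertical axis), against the mean log2 RMA signal over 16 arrays (horizontal axis) for 172 probe sets of 70 ribosomal protein genes. Circles are the probe sets used for the genes, triangles their other probe sets, and dotted lines mark signals of 10 and 12. All 92 points at 12 or more are grey (not past the threshold), and 13 of the 14 red points (higher) lie below 10.

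Dim and bright probe sets of the same gene differed in the examples that follow, which were chosen after their values were seen. For RPL37A, a large-subunit protein, a probe set with a mean of 6.55 had 6.56 to 7.03 with PMA and 6.11 to 6.34 with vehicle and rose by 0.61. A dim RPS4X probe set, with a mean of 4.42, rose by 0.85. No PMA array was as low as the highest vehicle array, at 4.08. The mean of this probe set lay below the median over all probe sets of every array (4.91 to 4.96). The filter asked for at least 4 arrays at the 40th percentile, so the arrays that received PMA could have sufficed to keep it. Whether its signal stood above background was not tested. For RPL32 a probe set at 7.14 rose by 0.36, while the one at 13.71 differed by −0.02. For RPS15A, of the small subunit, the dim sets went the other way, with falls of 0.60 and 0.66 at signals of 5.78 and 5.75, while the set at 13.25 differed by −0.01. Of the 38 probe sets assigned to a member and other genes, 34 were kept, and 2 were higher and 0 were lower with PMA. Those of RPL17, RPL36A and RPS12, which had no other probe set, differed by −0.05 to 0.03, and those of RPS26 by −0.02 and −0.25, of which none passed.

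Other genes of ribosome production and translation were compared through fixed lists, against the 17.7% of all genes that were higher and 29.3% that were lower with PMA, and the 15.7% and 26.9% with DOC plus PMA against DOC. Of 18 further genes listed as TOP genes, mainly for translation factors, 2 rose and 2 fell with PMA, with a median of −0.05. TPT1, a translationally controlled tumour protein gene, rose by 0.29 and PABPC1, the poly(A)-binding protein, by 0.18. The initiation factor genes EIF4B and EIF3F fell by 0.25 and 0.14. In DOC plus PMA against DOC 2 rose and 1 fell. A C and 4 pyrimidines stood at a start of 90.9% of the 11 of these genes with a start region. FAU, which encodes the small-subunit protein S30 under another name, differed by −0.07 and did not pass.

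The ribosome biogenesis list, of factors that process ribosomal RNA and assemble the subunits, had the highest median of these lists. Of 44 tested genes 26 rose with PMA and 1 fell, with a median of 0.24. In DOC plus PMA against DOC 27 rose and 0 fell, with a median of 0.29 (limma, with 30 at an unadjusted p under 0.05). WDR43, a component of the small-subunit processome, had 8.56, 8.50, 8.58 and 8.52 with PMA, against 7.58, 7.49, 7.44 and 7.65 with vehicle, and rose by 1.00 ± 0.06 (adjusted p = 5.60e-10, limma). NOP16, a nucleolar protein of large-subunit assembly in yeast, rose by 0.71 and RRP12, a factor of subunit export, by 0.62. NHP2, of the box H/ACA particles that guide pseudouridylation, fell by 0.26. A C and 4 pyrimidines stood at a start of 6 of the 40 list genes with a start region.

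RNA polymerase I, which transcribes ribosomal RNA, had 8 of 15 genes higher and 2 lower with PMA, with a median of 0.19, and 4 higher and 2 lower in DOC plus PMA against DOC, with a median of 0.15. The promoter factor subunit gene TAF1A averaged 7.87 ± 0.10 with PMA and 6.97 ± 0.15 with vehicle (SD, n = 4 each), a rise of 0.90 ± 0.08. The polymerase subunit genes POLR1B and POLR1G rose by 0.64 and 0.36, while the largest subunit, POLR1A, fell by 0.38 and the architectural factor UBTF by 0.45. In the list of mTORC1, S6 kinases and LARP1, 4 of 16 rose and 5 fell, and in DOC plus PMA against DOC 4 rose and 4 fell. RPS6KA3 (RSK2), an S6 kinase downstream of ERK, had 9.10, 8.82, 9.07 and 9.09 with PMA and 7.89, 7.96, 7.74 and 7.79 with vehicle, a rise of 1.17 ± 0.08. The mTORC1 activator RHEB rose by 0.36 and the S6 kinase RPS6KB1 by 0.29. LARP1 had 10.42, 10.60, 10.39 and 10.44 with PMA and 10.81, 10.83, 10.99 and 10.95 with vehicle, a fall of 0.43 ± 0.07, and RPS6KA2 and the mTOR partner MLST8 fell by 0.42 and 0.39. Of the 8 tested hosts of small nucleolar RNAs, SNHG12 rose by 0.30 and SNHG32 fell by 0.31, and in DOC plus PMA against DOC 0 passed (limma, 2 at an unadjusted p under 0.05).

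**Figure D5:**
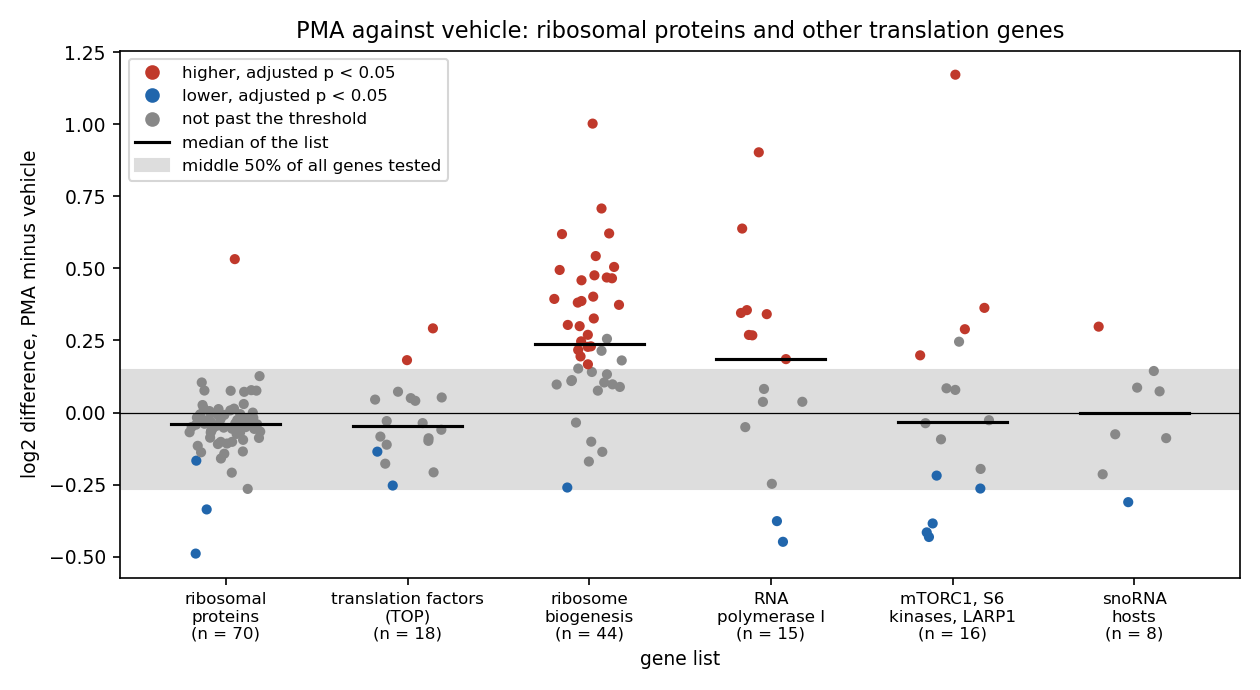
Log2 difference, PMA minus vehicle (vertical axis), for the ribosomal proteins and 5 other lists (horizontal axis, with the number of genes tested), with 1 point per gene spread sideways at random and the list median as a black line. The grey band holds the middle 50% of all 12495 genes. The median is −0.04 for ribosomal proteins and 0.24 for ribosome biogenesis factors, of which 26 of 44 are red (higher, adjusted p under 0.05).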

How the data were processed

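The authors deposited log2 signals, 1 column per array. Per the submitters' processing notes, these came from RMA in Affymetrix Expression Console (version not given in the sources used here). The method corrects background, applies quantile normalisation and summarises the probes of each of 49293 probe sets. The table held 0 columns of other samples. Platform annotation paired 44988 probe sets with 1 gene, 1832 with several and 2473 with none.

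A probe set was kept if it reached the 40th percentile of its array on at least 4 of 16 arrays (30613 kept), and a gene was represented by its single-gene probe set with the highest mean. Group means were fitted with limma 3.58.1 in R 4.3.3 (lmFit, eBayes), two-sided, with Benjamini-Hochberg adjustment over 12495 genes and a threshold of 0.05. The fit was run on simulated data with independent noise on each array. The real arrays deviated together in part, and what that did to the calls was not simulated. Arrays give no read depth, and their number limits the precision. Start regions came from RefSeq (GRCh38.p14).

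The members and lists were chosen with earlier results of these data known. Named were up to 10 members in each direction past the threshold, all members of the paralog, stalk, 5S, tunnel and channel lists, the 3 brightest and the 3 dimmest, and up to 3 list genes in each direction. A member named outside this rule (RPL23, RPS6, RPL13A and second probe sets) was chosen after its values were seen. Replicate numbers of PMA and DOC plus PMA were taken to pair, from the data alone, since their deviations from the group means correlated at 0.157 to 0.549 in all 4 pairs. The main fit did not use this pairing, and a replicate block was tried only as an alternative. For no other pair of groups did all 4 exceed 0.1. The alternatives tried were other filters, cyclic loess, centring on a common median, the mean of probe sets, no x or s probe sets, array weights, a replicate block, only the groups compared, and leaving out arrays.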

Additional observations from a re-analysis of the deposited data

Results flagged for a closer look

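In 10 of 112 groups of 4 arrays looked at, 1 array lay far from the other 3. Chance alone sets about 1 in 20 groups (5%) apart in this way. The count cannot be weighed against that share. RPL23 and RPS6, which are among the flagged genes, were chosen after their values were seen. The groups of different genes also come from the same arrays and are not independent. RPL36AL was at 10.22 on vehicle replicate 3, where the others were at most 10.11, and at 10.16 on DOC plus PMA replicate 2, where the others were at least 10.28. RPLP2 was at 12.64 on DOC plus PMA replicate 2, against at least 12.76 on the others, and at 12.65 on DOC replicate 1, against at least 12.84 on the others. RPL23 was at 11.80 on DOC replicate 1, against at least 12.65 on the others, and at 11.77 on PMA replicate 2, against at least 12.54. RPS6 was at 12.77 on PMA replicate 2, against at least 13.05 on the others. DOC replicate 1 and replicate 2 of both PMA groups are the 3 arrays that departed from their groups together. RPL5 was at 12.67 on PMA replicate 4, against at least 12.72 on the others. RPL31 was at 13.46 on vehicle replicate 4, against at most 13.39 on the others. The median of the 70 members was 12.94 on DOC replicate 4, against at most 12.91 on the other DOC arrays.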

How the results depend on the processing

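In 27 other settings, wherever fitted, both steroid contrasts and the interaction had 0 members past the threshold in limma. RPL39L, RPL13 and RPL27A passed with the same sign in the 3 comparisons that add PMA in each setting that tested them (RPL13 had no probe set left without x or s). For PMA against vehicle (1 higher, 3 lower), the higher count was 2 with no filter (with RPL10L), 5 with the mean of a gene's probe sets, 6 without x or s probe sets (34 members left), 2 with array weights and 3 without the 3 arrays that departed together, a setting chosen after seeing the data. The lower count was 5 at the 60th percentile filter, 8 with cyclic loess and 5 with the mean of probe sets, but 2 with no filter, with a common median and with the compared arrays alone, where RPS27L was lost. For DOC plus PMA against DOC (3 higher, 2 lower), the higher count was 10 with the mean of probe sets and 6 without x or s probe sets, where 1 was lower. For DOC plus PMA against vehicle (1 higher, 2 lower), the higher count was 2 with no filter, 9 with the mean of probe sets, 5 without x or s probe sets (1 lower) and 2 without the 3 arrays, and the lower count was 6 with cyclic loess. The mean of probe sets includes a gene's dimmer kept ones, and without x or s probe sets the one used can be dimmer. Whether this moved the counts was not tested. With the mean of probe sets RPL32 turned positive and passed as higher (0.18 for PMA, 0.25 for DOC plus PMA against DOC, 0.21 against vehicle). RPS2 did the same for DOC plus PMA against DOC (0.22) and against vehicle (0.18). In the main fit neither gene passed. Without x or s probe sets RPS2 passed as higher in all of them, at 0.24, 0.48 and 0.37 in this order of comparisons. Cyclic loess moved the member medians of PMA against vehicle, DOC plus PMA against DOC and DOC plus PMA against vehicle (−0.04, −0.02 and −0.02) to −0.07, −0.05 and −0.07, and centring on a common median moved them the other way, to −0.01, 0.00 and 0.00. The mean of probe sets gave −0.02, 0.02 and 0.00. The cause was not tested. Leaving out 1 array gave 1 higher and 2 to 5 lower for PMA against vehicle (5 without DOC replicate 1), 1 to 3 higher and 2 lower for DOC plus PMA against DOC (1 higher without DOC replicate 1 or 2 or DOC plus PMA replicate 3 or 4), and 1 higher and 2 lower for DOC plus PMA against vehicle. With the replicate block, PMA against vehicle had 1 higher and 4 lower, the added call being RPL26L1 (adjusted p = 0.0243), no other call changed, and DOC plus PMA against PMA stayed at 0.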

Other observations

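For DOC against vehicle, 0 of 44 ribosome biogenesis genes and 0 of 15 RNA polymerase I genes passed in limma. Of the further TOP genes 0 of 18 passed, and of the mTORC1, S6 kinase and LARP1 list 0 of 16. In this order, 1, 0, 0 and 0 genes had an unadjusted p under 0.05 (limma). Over all genes 0.12% passed, so lists of this size would hold hardly any call at that share. With the steroid present, phorbol ester gave differences of the same sign for the list genes named. In DOC plus PMA against DOC, WDR43 rose by 0.94 ± 0.06, NOP16 by 0.92 ± 0.14, TAF1A by 0.75 ± 0.08 and RPS6KA3 by 1.18 ± 0.08, while UBTF fell by 0.44 ± 0.07 and LARP1 fell by 0.42 ± 0.07 (SE, limma). EIF3F, NHP2, POLR1G, RPS6KA2, SNHG12 and SNHG32, which passed with PMA alone, did not pass there, with adjusted p-values of 0.156, 0.196, 0.0724, 0.0630, 0.0605 and 0.0541 (limma).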
